A study of Rattus norvegicus with 11 samples.

Results

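The chaperones and the genes of the endoplasmic reticulum (ER) stress response are a list of 40 rat genes in 3 arms. The list holds 15 cytosolic and mitochondrial heat shock genes, 17 ER chaperones and ER stress sensors, and 8 genes of the arm run by the transcription factor Atf4. A gene counted as measured where a probe named for it lay well above background on at least 2 arrays, and its brightest probe stood for it. By that rule 37 of the 40 genes were measured, all of them well above background on all 11 arrays, among 25250 genes tested, of which 14358 carried a name. No probe was named here for Hspa1a, Hspa1b or Dnajb1, the inducible heat shock proteins and a partner of theirs, so the heat shock arm had 12 measured genes.

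The samples were renal cortex of Sprague Dawley (SD) rats, and total RNA of each was hybridised to a single-colour 44K oligonucleotide array. Control rats carried no disease, and the diabetic (DM) rats had type 1 diabetes induced with streptozotocin (STZ), which destroys the insulin-producing beta cells. After 4 weeks the rats were operated on. They had either sham surgery or a Roux-en-Y gastric bypass (RYGB), in which a small stomach pouch is joined to the jejunum so that food skips the duodenum. Another 4 weeks later the cortex was taken. The groups were Control+Sham, DM+Sham and Control+RYGB with 3 arrays each, and DM+RYGB with 2. The labels give no genotype, age or sex, and do not say that replicates were separate animals, so the p-values measure only the spread between these samples, which may be technical. Whole cortex was profiled, so fewer cells of a type and less RNA per cell cannot be told apart.

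Chaperones hold newly made or damaged proteins until they fold. In the cytosol and mitochondria they are induced by heat shock factors, of which Hsf1 is the best known. In the ER, misfolded protein activates the sensors Ern1 (IRE1), Atf6 and Eif2ak3 (PERK), whose signals raise ER chaperones, degrade misfolded protein and, through Atf4, raise genes of amino acid supply. Tubule cells of the kidney cortex make and recycle large amounts of membrane and secreted protein, and ER stress has been studied widely in diabetic kidney.

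The promoters of several members hold the textbook elements through which these signals act. They are shown because the members that carry one and the same element are compared with each other below. The window searched ran from 250 bases before to 50 bases after the gene's start, in RefSeq promoters of the GRCr8 assembly, on both strands, and was at hand for 33 of the 40 genes. The ER stress element (ERSE), searched as CCAAT and CCACG with 9 free bases between them, lay in 7 of the 13 ER members with a window, and in 0.0765% of all 27457 genes. Its carriers were Hspa5, Hsp90b1, Calr, Canx, Dnajc3, Creld2 and Xbp1. The related element ERSE-II, searched as ATTGG and CCACG with 1 free base between them, lay in Hyou1 and Herpud1, and in 0.0619% of all genes. The heat shock element (HSE) was searched as 3 units of GAA and TTC in turn with 2 free bases between units, starting with either. It lay in 5 of the 12 heat shock members with a window (Hspa8, Hsph1, Hspd1, Hspe1 and Dnaja1) and in 0.794% of all genes. These 12 are not the same set as the 12 measured. The C/EBP-ATF element through which Atf4 binds, searched as TGATGNAA, lay in 2 of the 8 Atf4 members, Trib3 and Chac1, in Herpud1, and in 4.16% of all genes. The unfolded protein response element core TGACGTGG lay in Bag3 and in Hyou1, where it overlaps an ERSE-II, and in 0.681% of all genes. The stretches below run 5′ to 3′ on the strand of the gene, with the element in capitals; Hsp90b1 and Hspa8 hold a second one outside the stretch shown. A match describes the sequence only.
Hspa5, ERSE, chr3:38452952-38453011, plus strand: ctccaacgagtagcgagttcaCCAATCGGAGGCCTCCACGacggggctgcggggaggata
Hsp90b1, ERSE on the opposite strand, chr7:23012326-23012385, minus strand: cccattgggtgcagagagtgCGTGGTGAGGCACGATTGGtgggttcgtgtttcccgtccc
Calr, ERSE on the opposite strand, chr19:40213117-40213176, plus strand: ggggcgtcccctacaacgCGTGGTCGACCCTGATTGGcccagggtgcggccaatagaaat
Xbp1, ERSE, chr14:84604537-84604596, plus strand: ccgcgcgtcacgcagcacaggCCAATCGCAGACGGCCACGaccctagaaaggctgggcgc
Hyou1, ERSE-II at 2 places, both on the opposite strand, chr8:53602682-53602813, plus strand: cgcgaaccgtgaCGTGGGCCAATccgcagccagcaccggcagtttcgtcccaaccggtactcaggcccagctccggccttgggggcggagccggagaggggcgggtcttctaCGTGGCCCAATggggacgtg
Hspa8, HSE, chr8:50080434-50080493, plus strand: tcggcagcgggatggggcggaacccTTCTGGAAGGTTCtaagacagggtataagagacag
Hsph1, HSE, chr12:10427308-10427367, plus strand: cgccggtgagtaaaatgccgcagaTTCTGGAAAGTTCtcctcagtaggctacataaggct
Hspe1, HSE (2 overlapping matches), chr9:64084241-64084300, plus strand: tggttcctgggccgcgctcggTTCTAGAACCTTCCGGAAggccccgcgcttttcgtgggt
The Hspe1 element is also the one in the window of Hspd1, which starts close by on the other strand.

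Levels are log2 signal relative to the 75th percentile of the array, and a change is the difference of 2 group means on that scale, from limma. Pairs of arrays that differed by less than repeated spots of 1 array were averaged: DM+Sham 2 and 3 (spread 0.021) and Control+RYGB 2 and 3 (0.053). That left 9 samples: 3 of Control+Sham and 2 of each other group. With this scaling the median of all genes moved by 0.57 for RYGB in diabetic rats, 0.59 for DM+RYGB against Control+Sham and 0.29 for RYGB in control rats, but by 0.03 for diabetes in sham rats. A gene was therefore called higher or lower only where its p-value, adjusted over all genes, was under 0.05 in the same direction under 75th percentile, median and quantile scaling. All Control+RYGB arrays shared a slide position that no other array had, which cannot be told apart from the group. Of the markers that define the cortex, all 10 of the proximal tubule were above background on every array. So were the 8 measured markers of the glomerulus and distal nephron. Heart muscle markers summed to 0.678 to 1.27 on 10 arrays and to 412 on DM+RYGB 2 (linear signal relative to the 75th percentile). That array goes against its tissue label in this respect, so the changes of called members that include it are given without it too. Leaving it out leaves 1 array of DM+RYGB, which is assumed to vary like the other groups, so the spread behind those p-values comes from the other groups alone. Without it, 9 members were called for RYGB in diabetic rats, 1 higher and 8 lower. Control+Sham was scanned on days 1 to 3, DM+Sham on days 2 to 4 and both RYGB groups on days 4 to 5, so no RYGB array shared a day with a Control+Sham array. With scan day as a block 2 members were called for RYGB in diabetic rats, beside 1292 of all genes. In the other 4 comparisons limma called 0 members. There 6 to 9 members had an unadjusted p under 0.05, as did 4185 to 8504 of the 25250 genes tested. The scan day fit kept DM+Sham 2 and 3 as separate samples and added terms for the days. It had fewer residual degrees of freedom than the 5 of the fit used for the calls.

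Diabetes in sham rats changed 4 of the 37 members, 2 higher (Calr and Hyou1) and 2 lower (Sdf2l1 and Asns). That is 10.8% of members, against 12.3% of all genes called. Among all genes 5.87% were called higher and 6.45% lower, so the members' share was near the background. The count was 0 without Control+Sham 1, without DM+Sham 1 or without both DM+Sham 2 and 3, 1 without Control+Sham 2, and 7 without either DM+RYGB array. The members' median change was -0.07 and that of all genes was 0.03.

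RYGB in diabetic rats changed 7 members (18.9%), where 21.4% of all genes were called. Hspb8 was higher, and Calr, Hyou1, Sel1l, Sesn2, Phgdh and Psat1 were lower, against 10.4% of all genes higher and 10.9% lower. The median change of the members was 0.04, below the 0.57 of all genes. Under median scaling both fell, to -0.56 and -0.04, and under quantile scaling to -0.17 and -0.06. Calls under a single scaling split differently. The 75th percentile alone gave 4 higher and 6 lower members, median scaling 1 and 19, and quantile scaling 3 and 13. Among all genes, the share of calls that were higher was 79.3% under the 75th percentile alone, 37.6% under the median and 38.6% under quantiles.

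RYGB in control rats changed 2 members (5.41%), Hspb1 higher and Asns lower, where 12.4% of all genes were called, 6.93% higher and 5.49% lower. Under the 75th percentile alone 11 members were higher and 1 lower, with median scaling 1 and 3, and with quantile scaling 3 and 1. The count was 0 without Control+RYGB 1 or without both Control+RYGB 2 and 3, 1 without Control+Sham 1 or Control+Sham 2, and 5 without either DM+RYGB array. With scan day as a block limma called 0 of all genes in this comparison, with 4185 at an unadjusted p under 0.05, and 0 in DM+RYGB against Control+Sham, with 8504. In DM+RYGB against Control+Sham 10 members were called (27%), against 23.9% of all genes. Hspb8 was higher (all genes: 11.9%). Hsp90aa1, Calr, Sdf2l1, Creld2, Atf6, Asns, Sesn2, Phgdh and Psat1 were lower (all genes: 12%). The 75th percentile alone split these calls into 8 higher and 9 lower, the median into 1 and 23, and quantiles into 3 and 18. The interaction, which is the RYGB effect in diabetic rats minus that in control rats, was called for 8 members (21.6%) against 14.6% of all genes. It was above 0 for Asns (6.48% of all genes) and below 0 for Calr, Hyou1, Dnajb9, Sel1l, Sesn2, Phgdh and Psat1 (8.08%). These comparisons share groups and are not independent of each other. In all, 14 members (37.8%) were called at least once and 23 never, and of all genes 41% were called at least once.

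**Figure D1:**
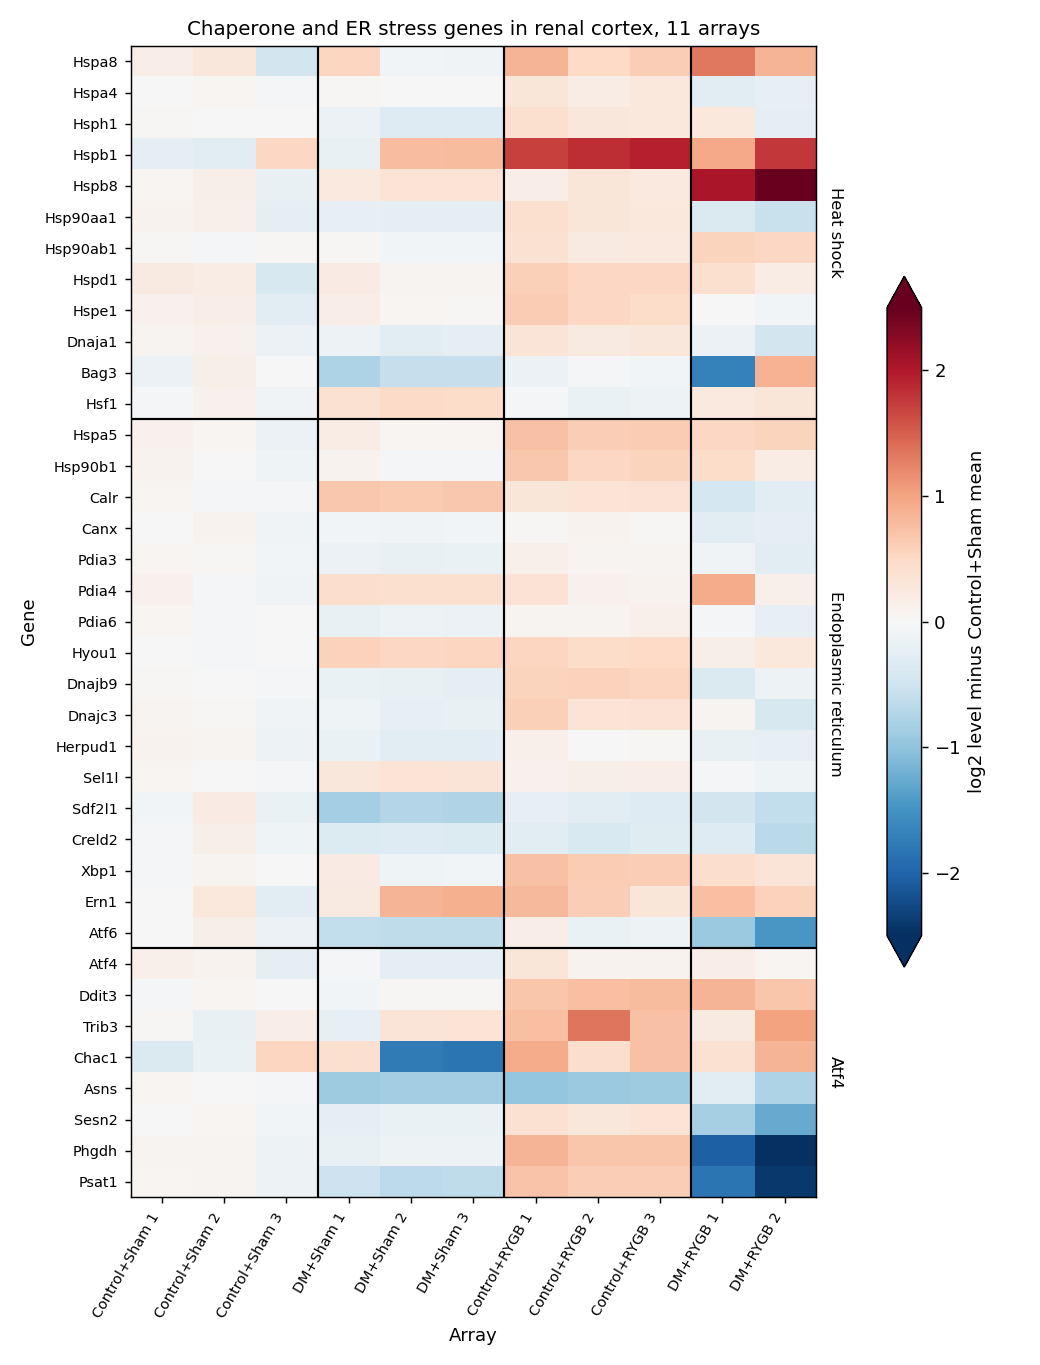
Log2 level of each of the 37 measured members (rows, grouped by arm) on each of the 11 arrays (columns), minus the Control+Sham mean of that gene; red is higher and blue is lower, and the colour scale ends at 2.5 in both directions. Phgdh and Psat1 are deepest blue on both DM+RYGB arrays, Calr is red on the 3 DM+Sham arrays and blue on the DM+RYGB arrays, and Hspb8 is deep red on the DM+RYGB arrays alone.

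Calr encodes calreticulin, a calcium-binding chaperone that folds glycoproteins in the ER. Its level was 1.08, 1.00 and 1.02 in Control+Sham, 1.72, 1.69 and 1.71 in DM+Sham, 1.35, 1.39 and 1.40 in Control+RYGB, and 0.61 and 0.75 in DM+RYGB. The arrays of the 4 groups did not overlap, with DM+Sham highest and DM+RYGB lowest. Calr rose in diabetic sham rats by 0.68 (SE 0.10, adjusted p = 0.0057), which is 1.6-fold. In diabetic rats it fell with RYGB by 1.03 (SE 0.10, adjusted p = 0.0009), 2.04-fold, and ended 0.35 lower than in Control+Sham (change -0.35, adjusted p = 0.017). In control rats the RYGB change was 0.34 (adjusted p = 0.042), which is near the 0.29 of all genes and was not called under other scalings (0.03 with median scaling). The difference between both RYGB effects was -1.37 (SE 0.14, adjusted p = 0.0019). On arrays scanned on 1 day, the difference of diabetic sham minus control sham was 0.72 and 0.67 on the days that held sham arrays of both, and DM+RYGB 1 minus DM+Sham 3 was -1.10. The fall with RYGB kept its call under all 13 other settings and all 13 fits that left out arrays (-1.64 to -0.96), and was -1.10 without DM+RYGB 2. Without that array DM+RYGB against Control+Sham was -0.42 and the interaction was -1.44. The call against Control+Sham was lost with scan day as a block, with only the groups compared and without Control+Sham 1. The rise with diabetes kept its direction throughout (0.60 to 0.80), but lost its call without Control+Sham 1, Control+Sham 2, DM+Sham 1 or Control+RYGB 1, without either averaged pair, with scan day as a block and with normexp background correction (highest adjusted p 0.14). Plasma cells secrete antibody and are rich in ER. Their 6 measured markers summed to 4.35 to 4.6 in DM+Sham, 3.91 to 4.16 in Control+Sham, 3.85 to 4.06 in Control+RYGB, and 2.09 and 1.64 in DM+RYGB. The sum was thus highest in DM+Sham and lowest in DM+RYGB as for Calr, but the markers did not all follow it. With diabetes 2 of the 6 were lower, and the median change of the 6 was -0.36. With RYGB in diabetic rats 1 was lower, and the median change was 0.51, beside 0.57 for all genes. Under quantile scaling these were -0.41 and -0.06. The interaction was above 0 for 2 markers and below 0 for 1. Their part in the values of Calr, Sel1l and Sec61a1 was not tested.

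Hyou1, a large ER chaperone of the heat shock protein A superfamily that helps Hspa5 release its client, also rose with diabetes and fell with RYGB in diabetic rats, but was not called in DM+RYGB against Control+Sham (0.21, adjusted p = 0.087, and -0.46 with median scaling). It stood at 1.61, 1.59 and 1.62 in Control+Sham and at 2.19, 2.13 and 2.14 in DM+Sham. In Control+RYGB its levels were 2.14, 2.06 and 2.11, and in DM+RYGB 1.75 and 1.88. Every other array lay above all Control+Sham arrays, and DM+RYGB lay between Control+Sham and the rest. Hyou1 rose with diabetes by 0.56 (SE 0.09, adjusted p = 0.011) and fell with RYGB in diabetic rats by 0.34 (SE 0.10, adjusted p = 0.029), a change 0.91 below that of the median gene. The RYGB change in control rats was 0.51 (SE 0.09, adjusted p = 0.014 with the 75th percentile, 0.23 with the median), and the interaction was -0.86 (adjusted p = 0.0077), or -0.92 without DM+RYGB 2. The call of the fall (-0.95 to -0.28 over all alternatives, -0.41 without DM+RYGB 2) was lost with scan day as a block, with only the groups compared in the fit, without Control+Sham 1, DM+Sham 1 or Control+RYGB 1, and without either averaged pair. The rise (0.48 to 0.68) lost its call in these cases too, and with normexp and without Control+Sham 2 or Control+Sham 3.

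Among the 7 ERSE members, 1 was called for RYGB in diabetic rats (Calr), where 21.4% of all genes were called, and the changes of all 7 spanned -1.03 to 0.42. Hspa5 (BiP), the main ER chaperone and the usual readout of ER stress, was at 3.52, 3.47 and 3.27 in Control+Sham and at 3.6, 3.46 and 3.46 in DM+Sham, and these arrays overlapped. It was at 4.16, 4.04 and 4.05 in Control+RYGB and at 3.94 and 3.97 in DM+RYGB, above every sham array. Its changes were 0.11 with diabetes, 0.42 with RYGB in diabetic rats and 0.69 with RYGB in control rats. The last had an adjusted p of 0.012 with the 75th percentile but 0.086 with the median and 0.23 with quantiles, where the change was 0.18, so neither RYGB difference was called. Hsp90b1 (Grp94), the ER member of the Hsp90 family, had log2 changes of 0.03, 0.29 and 0.60 in the same 3 comparisons, and the last was 0.33 with quantile scaling (adjusted p = 0.058). Xbp1, the transcription factor that Ern1 activates by splicing, had log2 changes of 0.05, 0.32 and 0.67. For RYGB in control rats its adjusted p was 0.013 with the 75th percentile, 0.027 with quantiles and 0.057 with the median, just outside the call. There it was called higher under 9 alternatives. Whether the probe reads the spliced or the unspliced form is not known here.

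Sel1l and Dnajb9 serve the removal of misfolded protein from the ER, the former as a scaffold of the Hrd1 ligase complex and the latter as a cochaperone of Hspa5. Sel1l was at -1.72, -1.78 and -1.82 in Control+Sham, -1.48, -1.42 and -1.45 in DM+Sham, -1.66, -1.62 and -1.60 in Control+RYGB and -1.79 and -1.87 in DM+RYGB. DM+Sham was the highest group, without overlap. Sel1l fell with RYGB in diabetic rats by 0.37 (SE 0.10, adjusted p = 0.021) and had an interaction of -0.51 (SE 0.14, adjusted p = 0.039). A second probe of Sel1l gave -0.18 with RYGB in diabetic rats, and the call was lost with the mean over both probes, with normexp, with scan day as a block, with only the groups compared, without DM+Sham 1 and without DM+Sham 2 and 3 (-0.98 to -0.27, and -0.33 without DM+RYGB 2). The interaction kept its call in 6 of 13 fits that left out arrays. It lost it without any 1 Control+Sham array, without DM+Sham 1 or Control+RYGB 1, without either averaged pair, and with normexp, the mean over probes and scan day as a block (-0.80 to -0.35, and -0.47 without DM+RYGB 2). Dnajb9 was at -1.18, -1.2 and -1.23 in Control+Sham, -1.36, -1.38 and -1.42 in DM+Sham, -0.65, -0.62 and -0.66 in Control+RYGB, and -1.56 and -1.32 in DM+RYGB. Control+RYGB stood above all other arrays. Only the interaction of Dnajb9 was called (-0.62, SE 0.16, adjusted p = 0.033), with 0.56 for RYGB in control rats and -0.06 in diabetic rats on the 75th percentile scale. The call was lost without any 1 Control+Sham array, without DM+Sham 1 or Control+RYGB 1, without either averaged pair, with normexp and with scan day as a block (-0.91 to -0.50 over all alternatives, -0.74 without DM+RYGB 2).

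Sdf2l1 and Creld2 are small ER proteins that are induced in ER stress. Sdf2l1 was at 0.26, 0.52 and 0.16 in Control+Sham and -0.52, -0.42 and -0.44 in DM+Sham. It was at 0.12, 0.04 and 0.00 in Control+RYGB and at -0.13 and -0.29 in DM+RYGB. Control+Sham was the highest group and DM+Sham the lowest, without overlap. It fell with diabetes by 0.79 (SE 0.14, adjusted p = 0.012), opposite in sign to Calr and Hyou1, and a second probe gave -0.87. That call was lost without Control+Sham 1, without DM+Sham 1, without DM+Sham 2 and 3, with normexp and with scan day as a block (highest adjusted p 0.14). In DM+RYGB it was 0.52 lower than in Control+Sham (change -0.52, adjusted p = 0.015), a call lost without DM+RYGB 2 (-0.44, adjusted p = 0.058), with only the groups compared and with scan day as a block. The second probe gave -0.27 there. Creld2 was at -0.63, -0.45 and -0.70 in Control+Sham, -0.94, -0.91 and -0.93 in DM+Sham, -0.87, -0.98 and -0.89 in Control+RYGB and -0.92 and -1.26 in DM+RYGB. Control+Sham lay above all other arrays, but only DM+RYGB against Control+Sham was called (-0.49, SE 0.14, adjusted p = 0.019). That call too was lost without DM+RYGB 2 (-0.32), and also without Control+Sham 2, with only the groups compared and with scan day as a block.

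Of the sensors, Atf6 was called. Its level was -0.41, -0.27 and -0.57 in Control+Sham, -1.03, -1.06 and -1.05 in DM+Sham, -0.26, -0.59 and -0.55 in Control+RYGB and -1.35 and -1.88 in DM+RYGB. The diabetic arrays lay below all control arrays, and those of DM+RYGB lowest. In DM+RYGB it was lower than in Control+Sham by 1.2 (change -1.2, SE 0.19, adjusted p = 0.0025), whereas the step with diabetes (-0.63, adjusted p = 0.068) and the step with RYGB in diabetic rats (-0.57, adjusted p = 0.055) were not called. The step with diabetes was called lower under 5 alternatives and the step with RYGB under 8. A second Atf6 probe gave -0.58 for DM+RYGB against Control+Sham, -0.12 with diabetes and -0.46 with RYGB in diabetic rats. Without DM+RYGB 2 the first probe gave -0.93 (adjusted p = 0.0072), and the call was lost only with scan day as a block (highest adjusted p 0.11). Ern1 was at -5.30 to -4.16 and was uncalled in all 5 comparisons. The remaining ER members Canx, Pdia3, Pdia4, Pdia6, Dnajc3 and Herpud1, which fold glycoproteins, form disulphide bonds, assist Hspa5 or remove misfolded protein, were also uncalled in all 5. In DM+RYGB against Control+Sham some alternatives called them lower: 8 for Canx, 5 for Herpud1, 4 for Dnajc3, 3 for Pdia3 and 2 for Pdia6. Canx, Pdia3 and Pdia6 varied least, by 0.34, 0.40 and 0.34 from the lowest to the highest array.

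**Figure D2:**
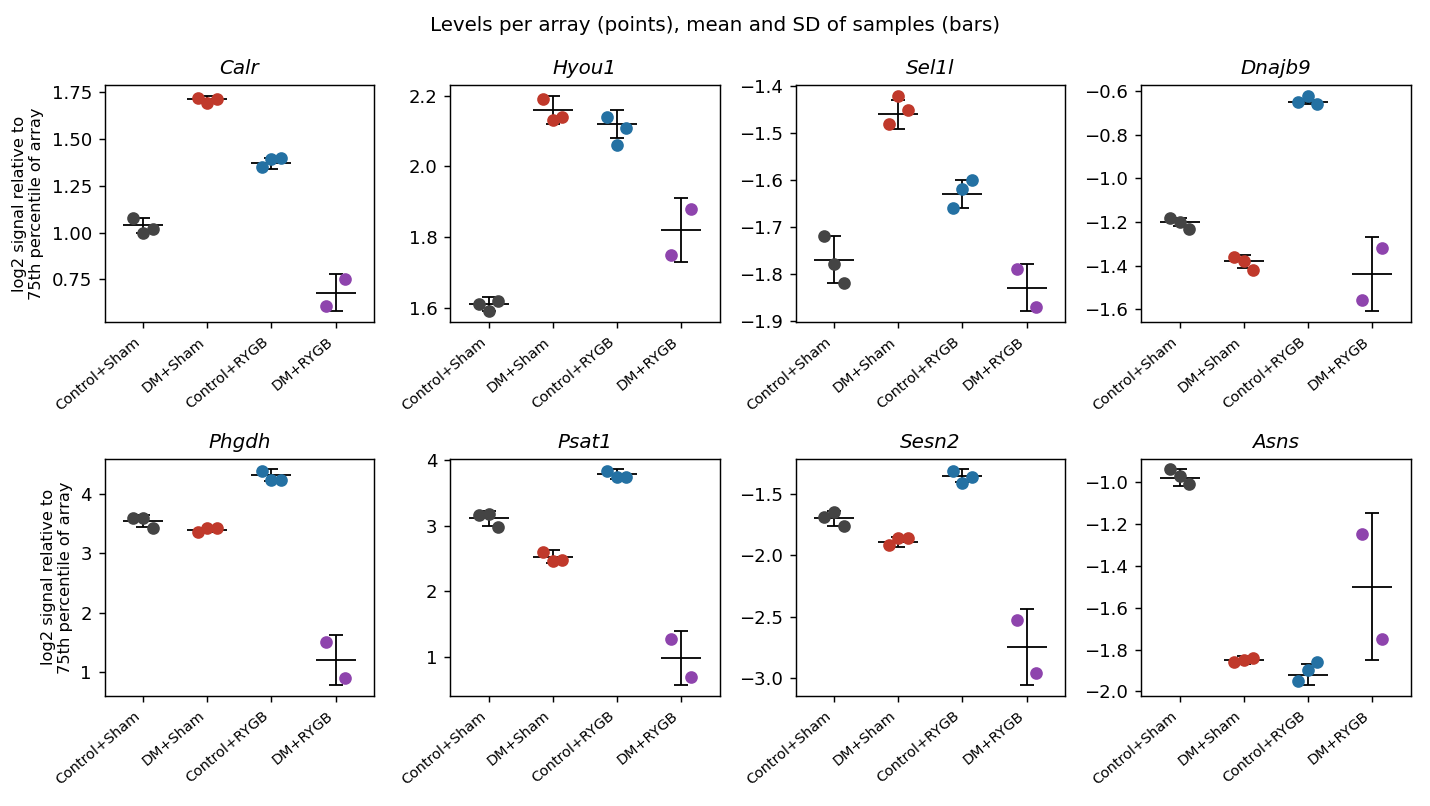
Log2 signal relative to the 75th percentile of the array (vertical axes, different ranges) for 8 members in the 4 groups; points are arrays, and horizontal bars with whiskers are the mean and SD of the samples in the fit. Calr, Hyou1 and Sel1l are highest in DM+Sham, Dnajb9, Phgdh, Psat1 and Sesn2 in Control+RYGB and Asns in Control+Sham; DM+RYGB has the lowest mean for Calr, Sel1l, Dnajb9, Phgdh, Psat1 and Sesn2.

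In the Atf4 arm the largest differences were those of Phgdh and Psat1, the enzymes of the opening steps of serine synthesis from glycolysis. Phgdh was at 3.6, 3.6 and 3.42 in Control+Sham, 3.36, 3.42 and 3.42 in DM+Sham, 4.38, 4.24 and 4.24 in Control+RYGB and 1.5 and 0.90 in DM+RYGB. Both DM+RYGB arrays stood far below all others, and both sham groups were close to each other. Phgdh fell with RYGB in diabetic rats by 2.19 (SE 0.20, adjusted p = 0.0007), which is 4.56-fold. Against Control+Sham it was lower by 2.34 (change -2.34, SE 0.18, adjusted p = 0.00031), while diabetes in sham rats gave -0.15 (adjusted p = 0.63). In control rats the RYGB change was 0.77 (adjusted p = 0.027 with the 75th percentile, 0.11 with the median and 0.42 with quantiles), and the interaction was -2.96 (SE 0.27, adjusted p = 0.0012). DM+RYGB 1 minus DM+Sham 3, scanned on 1 day, was -1.92. Without DM+RYGB 2 the fall was -1.89 (adjusted p = 0.00067), and it kept its call under all 13 other settings and all 13 fits that left out arrays. Without that array DM+RYGB against Control+Sham was -2.04 and the interaction was -2.66. With scan day as a block, DM+RYGB against Control+Sham (-2.15, adjusted p = 0.073) and the interaction (-2.99, adjusted p = 0.052) lost theirs.

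Psat1 followed Phgdh across the groups. It was at 3.16, 3.18 and 2.98 in Control+Sham, 2.60, 2.46 and 2.47 in DM+Sham, 3.83, 3.73 and 3.73 in Control+RYGB and 1.28 and 0.70 in DM+RYGB. Here the 4 groups did not overlap, and DM+Sham lay below Control+Sham. Psat1 fell with RYGB in diabetic rats by 1.54 (SE 0.20, adjusted p = 0.0018), 2.91-fold, and by 1.25 without DM+RYGB 2 (adjusted p = 0.0018). The change with diabetes was -0.58 (adjusted p = 0.076) and was not called, though it was under 8 alternatives, among them each fit without 1 DM+RYGB array, and DM+RYGB against Control+Sham was -2.12 (SE 0.18, adjusted p = 0.00039). The interaction was -2.22 (SE 0.27, adjusted p = 0.0031). Both were smaller without DM+RYGB 2, at -1.83 and -1.92. The fall with RYGB lost its call only with scan day as a block, where it was -1.31. The adjusted p there was 0.045 with the 75th percentile, and another scaling missed the threshold.

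The other enzymes of this route came from a list of further Atf4 targets and regulators. Psph, which completes serine synthesis, was at 1.15, 1.19 and 1.48 in Control+Sham, -0.27, -0.65 and -0.65 in DM+Sham, 1.56, 1.52 and 1.51 in Control+RYGB and -1.24 and -1.55 in DM+RYGB. It fell already with diabetes, by 1.73 (SE 0.17, adjusted p = 0.0016), and by a further 0.94 with RYGB in diabetic rats (adjusted p = 0.0078), so that DM+RYGB stood 2.67 below Control+Sham (change -2.67, adjusted p = 0.00018). Shmt2, which turns serine into glycine in mitochondria and was singled out after its values were seen, fell by 0.87 with RYGB in diabetic rats (adjusted p = 0.0044) and had a change of -0.21 with diabetes (adjusted p = 0.34). Without DM+RYGB 2 the fall with RYGB in diabetic rats was -0.78 for Psph (adjusted p = 0.027) and -0.67 for Shmt2, and Psph stood at -2.51 against Control+Sham. The proximal tubule, a site of serine synthesis in kidney, also gave lower marker signal in these samples. Of its 10 markers 6 fell with RYGB in diabetic rats, where 10.9% of all genes were lower. With diabetes limma called 0 of them. Of the 10, 1 had an unadjusted p under 0.05 there, as did 8088 of the 25250 genes. The 10 markers summed to 159 and 94.3 in DM+RYGB and to 173 to 208 in DM+Sham. They summed to 144 to 203 in Control+Sham and to 290 to 371 in Control+RYGB. Of the 8 markers of the glomerulus and distal nephron, 3 were higher and 0 lower with RYGB in diabetic rats, where 10.4% of all genes were higher. Those 8 summed to 269 and 160 in DM+RYGB, 92.2 to 132 in DM+Sham, 69 to 100 in Control+Sham and 112 to 152 in Control+RYGB. The part of these marker lists in the fall of Phgdh, Psat1, Psph and Shmt2 was not tested.

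Sesn2, a stress-induced inhibitor of mTORC1 signalling, was at -1.69, -1.65 and -1.76 in Control+Sham, -1.92, -1.86 and -1.86 in DM+Sham, -1.31, -1.41 and -1.36 in Control+RYGB and -2.53 and -2.96 in DM+RYGB. The groups did not overlap, and their order was that of Psat1. It fell with RYGB in diabetic rats by 0.86 (SE 0.16, adjusted p = 0.0053), and the interaction was -1.21 (SE 0.21, adjusted p = 0.0096). Without DM+RYGB 2 the interaction was -1.0 and DM+RYGB against Control+Sham was -0.83. The fall was -0.64 without that array (adjusted p = 0.0047) and lost its call with normexp background correction, with scan day as a block and with only the groups compared in the fit (highest adjusted p 0.21).

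Asns, asparagine synthetase and a classical Atf4 target, showed another order of the groups. It was at -0.94, -0.97 and -1.01 in Control+Sham, -1.86, -1.85 and -1.84 in DM+Sham, -1.95, -1.90 and -1.86 in Control+RYGB and -1.25 and -1.75 in DM+RYGB. Control+Sham was above every other array. Asns fell with diabetes by 0.88 (SE 0.15, adjusted p = 0.012) and with RYGB in control rats by 0.94 (SE 0.15, adjusted p = 0.01). RYGB in diabetic rats gave 0.35 (adjusted p = 0.12), and the interaction of 1.29 (SE 0.23, adjusted p = 0.01) was the only one called above 0. The call with diabetes was lost without Control+Sham 1, Control+Sham 2 or DM+Sham 1, without the pair DM+Sham 2 and 3, with scan day as a block and with normexp (-0.95 to -0.80, highest adjusted p 0.14). The call in control rats was lost without Control+RYGB 1, without Control+RYGB 2 and 3, with normexp and with scan day as a block. The interaction was 1.54 without DM+RYGB 2. It kept its call in 7 of 13 fits that left out arrays, and lost it without Control+Sham 1, Control+Sham 2, DM+Sham 1 or Control+RYGB 1, without either averaged pair, with normexp and with scan day as a block (1.0 to 1.54). DM+RYGB against Control+Sham was -0.53 (adjusted p = 0.023), -0.28 without DM+RYGB 2 and -0.78 without DM+RYGB 1. That call was lost without Control+Sham 1 or Control+Sham 2, with normexp, with scan day as a block and with only the groups compared. Urothelial markers, which belong to the lining of the renal pelvis, moved alongside. They summed to 2.17 to 2.36 in Control+Sham and to 0.194 to 0.557 on all other arrays. With diabetes 6 of 7 were lower, and with RYGB in control rats 6 of 7, where 6.45% and 5.49% of all genes were lower. Their part in the Asns values was not tested.

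Atf4 itself was not called in any comparison. Its level ran from 2.41 to 2.95 over the 11 arrays, and its changes were -0.14, 0.25 and 0.20 for diabetes, RYGB in diabetic rats and RYGB in control rats. Ddit3 (CHOP), the transcription factor of prolonged ER stress, was at 1.63, 1.70 and 1.67 in Control+Sham, 1.60, 1.68 and 1.68 in DM+Sham, 2.35, 2.42 and 2.46 in Control+RYGB and 2.5 and 2.35 in DM+RYGB. All operated arrays were above all sham arrays. The RYGB changes were 0.78 in diabetic rats and 0.73 in control rats with the 75th percentile, 0.65 and 0.54 with quantiles, and 0.18 and 0.42 with the median. They passed under the 75th percentile and quantiles, but not with the median (adjusted p 0.32 and 0.051), so Ddit3 was not called. In control rats it was called under 11 alternatives, among them each fit without 1 DM+RYGB array, the shared scan as a term and only the groups compared. Trib3, a pseudokinase induced by Ddit3 and Atf4, was at -4.18 to -2.63 and uncalled. Chac1, an enzyme that degrades glutathione, was at -2.63 on DM+Sham 1 and at -4.81 and -4.86 on DM+Sham 2 and 3, and its comparisons with that group had an SE of 0.62 or more.

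**Figure D3:**
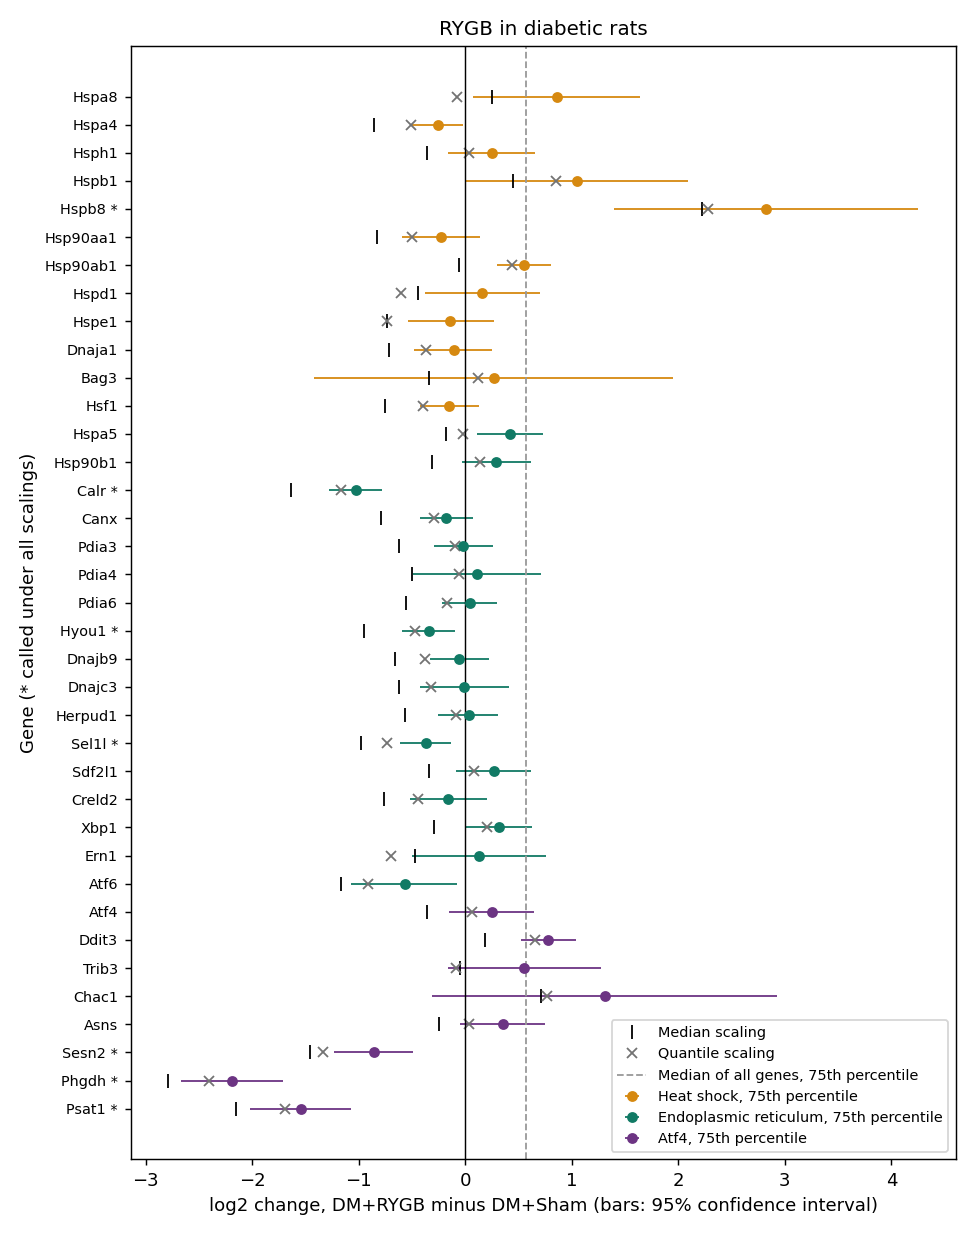
Log2 change with RYGB in diabetic rats for the 37 members (DM+RYGB minus DM+Sham); dots with bars are the change and 95% confidence interval under 75th percentile scaling, coloured by arm, and ticks and crosses are the change under median and quantile scaling. Most members lie left of the dashed line, the median of all genes at 0.57; Phgdh at -2.19, Psat1 at -1.54 and Calr at -1.03 lie farthest left and Hspb8 at 2.82 farthest right.

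In the heat shock arm 3 of the 12 measured members (25%) were called in any comparison, where 41% of all genes were. Hspb8, a small heat shock protein that works with Bag3 in the removal of damaged protein, above all in muscle, was at -5.01, -4.91 and -5.24 in Control+Sham, -4.80, -4.71 and -4.70 in DM+Sham, -4.89, -4.75 and -4.80 in Control+RYGB, and -3.00 and -0.86 in DM+RYGB. Both DM+RYGB arrays were above all others, and far apart from each other. It rose with RYGB in diabetic rats by 2.82 (SE 0.60, adjusted p = 0.009), by 1.75 without DM+RYGB 2 and by 3.89 without DM+RYGB 1. Against Control+Sham it was higher by 2.05 without DM+RYGB 2. The call with RYGB in diabetic rats was lost with scan day as a block, with the shared scan as a term and with only the groups compared. It was also lost without any 1 Control+Sham array, without DM+Sham 1 or Control+RYGB 1, and without either averaged pair (highest adjusted p 0.10). The call against Control+Sham was lost with scan day as a block and with only the groups compared. Heart muscle markers, 14 in all, summed to 412 on DM+RYGB 2 and to 1.27 on DM+RYGB 1. Skeletal muscle markers, 10 in all, summed to 13.1 on DM+RYGB 2 and to 1.21 on DM+RYGB 1. Smooth muscle markers, 8 in all, were high on both, at 9.23 on DM+RYGB 1 and 13.8 on DM+RYGB 2 against 3.39 to 4.69 on the other arrays, and 3 of them were higher and 1 lower with RYGB in diabetic rats. Those calls are 50% of the smooth muscle list, where 21.4% of all genes were called. The part of these muscle markers in the Hspb8 values was not tested.

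Bag3, the cochaperone that pairs with Hspb8, was at 1.92, 2.22 and 2.08 in Control+Sham, 1.29, 1.49 and 1.49 in DM+Sham, 1.93, 2.03 and 2.0 in Control+RYGB and 0.38 and 2.93 in DM+RYGB. The 2 DM+RYGB arrays were the lowest and the highest of all. No comparison of Bag3 was called, and the sign of its change with RYGB in diabetic rats depended on that array: 0.27 with both, -1.01 without DM+RYGB 2 and 1.54 without DM+RYGB 1. Hspb6, a further small heat shock protein of muscle that was singled out after its values were seen, was higher in DM+RYGB than in Control+Sham by 2.92 (adjusted p = 0.0073), and by 1.69 without DM+RYGB 2. The part of the muscle markers in its values was not tested either.

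Hspb1, the small heat shock protein that stabilises actin filaments and damaged proteins, was at -1.89, -1.92 and -1.12 in Control+Sham, -1.82, -0.86 and -0.84 in DM+Sham, 0.07, 0.21 and 0.30 in Control+RYGB and -0.69 and 0.12 in DM+RYGB. Operated arrays were above all sham arrays. The rise in control rats was 1.81 (SE 0.40, adjusted p = 0.022), 3.5-fold, and 1.52 above the median gene. In diabetic rats the change was 1.05 (adjusted p = 0.08) and was not called, and the interaction of -0.76 (adjusted p = 0.40) does not separate the effects. The call was lost without Control+Sham 1, Control+Sham 2 or Control+RYGB 1, without the pair Control+RYGB 2 and 3, with scan day as a block and with normexp (0.93 to 2.07, highest adjusted p 0.32).

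**Figure D4:**
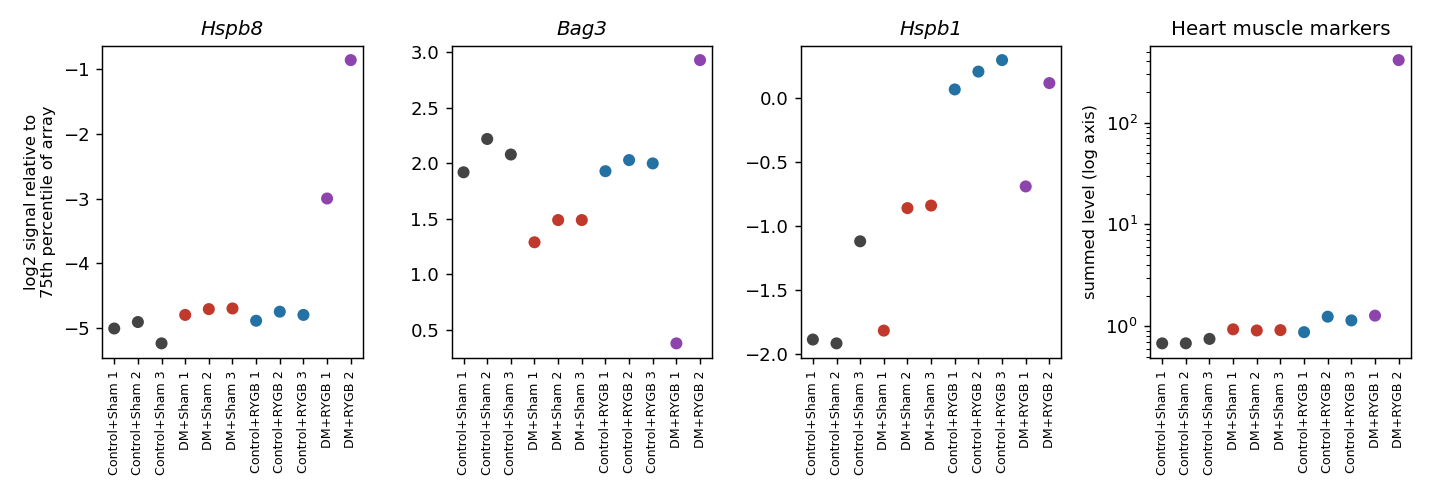
Log2 signal relative to the 75th percentile for Hspb8, Bag3 and Hspb1, and the summed level of the 14 heart muscle markers (log axis), on each of the 11 arrays; each point is an array, coloured by group. DM+RYGB 2 is the highest array for Hspb8 (-0.86), Bag3 (2.93) and the muscle markers (412), but not for Hspb1, where the 3 Control+RYGB arrays include the highest.

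Hsp90aa1, the inducible cytosolic Hsp90, was at 3.57, 3.62 and 3.26 in Control+Sham, 3.28, 3.24 and 3.24 in DM+Sham, 3.90, 3.79 and 3.76 in Control+RYGB and 3.13 and 2.94 in DM+RYGB. Control+RYGB was the highest group and DM+RYGB the lowest. In DM+RYGB it was lower than in Control+Sham by 0.45 (change -0.45, SE 0.14, adjusted p = 0.029). The other probes of the gene gave -0.45 and 0.06. The call was lost with the mean over probes, with scan day as a block and with only the groups compared. It was also lost without Control+Sham 1 or Control+Sham 2, and without DM+RYGB 2 (-0.36). Its constitutive partner Hsp90ab1 had a change of 0.55 with RYGB in diabetic rats under the 75th percentile (adjusted p = 0.0064), 0.44 with quantiles and -0.06 with the median, and was not called.

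The 5 members with a heat shock element were uncalled by limma in all 5 comparisons, where 12.3% to 23.9% of all genes were called. For RYGB in diabetic rats 1 of the 5 had an unadjusted p under 0.05 with the 75th percentile, as did 15340 of the 25250 genes. For RYGB in control rats 2 of the 5 did, beside 11004 of all genes. The changes of the 5 members with RYGB in diabetic rats ran from -0.14 to 0.86, and with diabetes from -0.23 to 0.24. Hspa8, the constitutive cytosolic chaperone, was at 5.0, 5.11 and 4.37 in Control+Sham, 5.37, 4.76 and 4.75 in DM+Sham, 5.68, 5.33 and 5.44 in Control+RYGB and 6.15 and 5.68 in DM+RYGB. Its change with RYGB in diabetic rats was 0.86 with the 75th percentile, 0.25 with the median and -0.08 with quantiles, and 4 probes of the gene gave 0.18 to 0.90. The mitochondrial pair Hspd1 and Hspe1, which form the folding chamber of the matrix and share the promoter shown above, had changes of 0.16 and -0.14 with RYGB in diabetic rats under the 75th percentile. With quantiles these were -0.60 and -0.74 (adjusted p 0.016 and 0.0054). The sign for Hspd1 thus turned with the scaling. Hspa4 and Hsph1, which release nucleotide from their partner chaperones, the cochaperone Dnaja1 and the regulator Hsf1 were uncalled. In DM+RYGB against Control+Sham Hspa4 (-0.25) was called lower under 10 alternatives and Dnaja1 (-0.30) under 7. Hsf1 was nearest to a call with diabetes, at 0.43 (adjusted p 0.038, 0.14 and 0.046 under the 75th percentile, median and quantiles).

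Genes around the members were read from fixed lists. Of 32 other ER folding and degradation genes, 2 were lower with diabetes, 8 were lower with RYGB in diabetic rats, and 2 were higher and 1 lower with RYGB in control rats. With diabetes that is 6.25% and with RYGB in control rats 9.38% of the list, against 12.3% and 12.4% of all genes called. The 8 that fell in diabetic rats were Sec61a1, Sec61g, Sec63, Syvn1, Derl1, Uggt1, Dnajc10 and Eif2ak3. Sec61a1, the pore through which proteins enter the ER, was at -1.99, -1.82 and -2.03 in Control+Sham, -1.64, -1.52 and -1.54 in DM+Sham, -1.98, -1.92 and -1.96 in Control+RYGB and -2.58 and -2.68 in DM+RYGB. Like Calr it was highest in DM+Sham and lowest in DM+RYGB. It fell with RYGB in diabetic rats by 1.05 (SE 0.12, adjusted p = 0.0013), its partner Sec61g fell by 1.03 (adjusted p = 0.0019), and the sensor kinase Eif2ak3 fell by 0.74 (adjusted p = 0.0033). Ero1b, which passes oxidising power to disulphide bonds, rose with RYGB in control rats by 1.38 (adjusted p = 0.0082). The 8 are 25% of the list, beside 10.9% of all genes lower. Without DM+RYGB 2 the changes with RYGB in diabetic rats were -1.0 for Sec61a1, -1.19 for Sec61g and -0.78 for Eif2ak3. In DM+RYGB against Control+Sham 1 was higher and 8 lower (28.1%, all genes 23.9%), and the interaction was below 0 for 7 (21.9%, all genes 14.6%).

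Of 28 other Atf4 targets and regulators, 3 were higher and 8 lower with diabetes (39.3%, where 12.3% of all genes were called). With RYGB in diabetic rats 1 was higher and 5 lower, which is 21.4%, the same share as of all genes (21.4%). With RYGB in control rats 3 were higher and 2 lower (17.9%, all genes 12.4%). In DM+RYGB against Control+Sham 2 were higher and 11 lower (46.4%, all genes 23.9%). The interaction was above 0 for 1 and below 0 for 8 (32.1%, all genes 14.6%). Atf3, a stress transcription factor that is also an immediate early gene, was at 1.78, 1.78 and 1.68 in Control+Sham, -0.57, -0.59 and -0.59 in DM+Sham, 2.73, 2.76 and 2.72 in Control+RYGB and -0.40 and -0.27 in DM+RYGB, so all diabetic arrays were below all control arrays. In control rats it rose with RYGB by 0.99 (SE 0.10, adjusted p = 0.0022). Of 15 other immediate early genes 9 fell with diabetes (60%, where 6.45% of all genes were lower). Their summed level was 52.3 to 56.5 in Control+Sham, 23.9 to 24.5 in DM+Sham, 78.6 to 82.8 in Control+RYGB and 32.5 and 44.6 in DM+RYGB. Their part in the Atf3 values was not tested. Nupr1, a stress-induced chromatin protein, fell with RYGB by 1.94 in control rats (SE 0.13, adjusted p = 0.0006) and by 1.47 in diabetic rats (SE 0.15, adjusted p = 0.00085). Gpt2, the mitochondrial alanine aminotransferase, rose with diabetes by 1.33 (SE 0.12, adjusted p = 0.0012) and fell with RYGB in diabetic rats by 0.90 (adjusted p = 0.0029). The falls in diabetic rats were -1.34 for Nupr1 and -0.77 for Gpt2 without DM+RYGB 2.

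Of 33 other heat shock proteins and cochaperones, 4 were lower with diabetes, 3 lower with RYGB in diabetic rats and 2 lower with RYGB in control rats. Those are 12.1%, 9.09% and 6.06% of the list, where 12.3%, 21.4% and 12.4% of all genes were called. The share was thus near or below the background. Hspa4l fell with diabetes by 0.87 (adjusted p = 0.0031), the cochaperone Dnaja4 fell by 1.08 (adjusted p = 0.008), and Hspa2 fell with RYGB in control rats by 1.32 (adjusted p = 0.0059). Dnaja3, a mitochondrial cochaperone, had a change of 0.51 with diabetes and was not called. Of the 8 subunits of the TRiC chaperonin, which folds actin and tubulin, Cct2 fell with diabetes by 0.71 (adjusted p = 0.01) and Cct6a fell with RYGB in diabetic rats by 0.90 (adjusted p = 0.0038), or 0.79 without DM+RYGB 2 (change -0.79). Cct5 and Cct7 had changes of 0.64 and 0.73 there without a call. With diabetes and with RYGB in diabetic rats alike, 12.5% of the 8 subunits were called, where 12.3% and 21.4% of all genes were. Of 11 cytosolic aminoacyl-tRNA synthetases, many of them Atf4 targets, 1 was lower with diabetes (Tars1, -0.60, adjusted p = 0.021). With RYGB in control rats 2 were lower, Mars1 among them (-0.59, adjusted p = 0.023). With RYGB in diabetic rats limma called 0. There 4 had an unadjusted p under 0.05, as did 15340 of the 25250 genes. Eprs1 and Cars1 had uncalled changes of 0.87 and 0.69 there, where 21.4% of all genes were called. The synthetase calls are 9.09% of the list with diabetes and 18.2% with RYGB in control rats, against 12.3% and 12.4% of all genes. With diabetes the changes of all 11 lay between -0.62 and -0.14, with a median of -0.38 beside 0.03 for all genes. Of the 11, 7 had an unadjusted p under 0.05 in limma, as did 8088 of the 25250 genes. Their summed level was 21.2 to 23.8 in Control+Sham and 16.0 to 16.8 in DM+Sham. In DM+RYGB against Control+Sham 4 were lower (36.4%, all genes 23.9%).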

How the data were processed

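Spot intensity on each of the 11 arrays was background-subtracted within the array by the scanner software, per the file headers. A second, deposited table holds the authors' log2 values of the same arrays, with a median of 7.07 in each column, and correlated with the scanner values at 0.9887 or more; how it was normalized is not stated in the sources used here, and it served as an alternative.

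Control spots (1377 of 44254) were left out, spots of a probe were averaged, and log2 of the processed signal was taken minus the 75th percentile of the array, which ran from 1540.6 to 4454.0 before scaling. A probe was kept if 2 or more arrays had it well above background, and the brightest stood for its gene. Of 30367 probes, 18005 were named through their accession. The number of samples limits the precision. R 4.3.3 and limma 3.58.1 fitted the 4 groups together (9 samples, 5 residual degrees of freedom), with p-values adjusted by Benjamini-Hochberg over 25250 genes. A call needed an adjusted p under 0.05 in the same direction under 75th percentile, median and quantile scaling. The script was tested on simulated data. The normexp alternative (offset 50) used the median spot signal.

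The members and lists were chosen with earlier results of these data known. Values are given for members called at least once, for up to 6 members of an arm and for 4 genes of each further list, taken by the smallest unadjusted p for diabetes or for RYGB in diabetic or control rats. Other alternatives were the filter on dim probes, the mean over probes, scan day, shared scan and replicate number as terms, each array as its own sample, only the groups compared, and each array left out.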

Additional observations from a re-analysis of the deposited data

Results flagged for a closer look

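For 8 members the effect of RYGB differed between diabetic and control rats by the interaction term in limma (RYGB effect in diabetic rats minus that in control rats, log2). The difference was -2.96 for Phgdh and -2.22 for Psat1, the serine synthesis enzymes. It was -1.21 for Sesn2, the inhibitor of mTORC1 signalling. Among ER genes it was -1.37 for Calr, -0.86 for Hyou1, -0.62 for Dnajb9 and -0.51 for Sel1l. Asns, at 1.29, was the only one above 0. All 8 passed under the 3 scalings, and all 8 lost their call with scan day as a block, a fit with fewer residual degrees of freedom. There the differences were -2.99 for Phgdh, -2.24 for Psat1, -1.22 for Sesn2 and -1.39 for Calr. They were -0.86 for Hyou1, -0.64 for Dnajb9, -0.54 for Sel1l and 1.28 for Asns. Calr, Phgdh, Psat1 and Sesn2 kept their call in all 13 fits that left out arrays, and Hyou1, Dnajb9, Sel1l and Asns in 10, 6, 6 and 7 of them. With normexp Calr, Phgdh and Psat1 kept it and the other 5 lost it.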

How the results depend on the processing

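The members called (4 for diabetes, 7 and 2 for RYGB in diabetic and in control rats, 10 for DM+RYGB against Control+Sham, 8 for the interaction, in this order below) moved as follows. With 75th percentile scaling alone, 12 were called for RYGB in control rats and 17 for DM+RYGB against Control+Sham. Median scaling alone gave 20, 4 and 24 for both RYGB effects and DM+RYGB against Control+Sham, quantile scaling 16, 4 and 21, and the deposited values 17, 7 and 21. Normexp gave 0, 0 and 3 for diabetes, RYGB in control rats and the interaction. Scan day as a block gave 0, 2, 0, 0 and 0. Each array as its own sample gave 9 for diabetes and 5 for RYGB in control rats. With only the groups compared, RYGB in diabetic rats gave 3, RYGB in control rats 4 and DM+RYGB against Control+Sham 4. For RYGB in control rats, probes above background on all arrays gave 4 and the shared scan as a term 4. Same-numbered arrays did not deviate together throughout (correlations -0.38 to 0.45), and differently numbered ones gave -0.43 to 0.41. Deviations from means of 2 or 3 arrays are tied to each other, so these correlations cannot decide whether numbers pair samples. The replicate block gave 7, 9, 4, 16 and 11. Leaving out arrays gave 0 to 7, 4 to 9, 0 to 5, 7 to 13 and 4 to 12. The count for the interaction was 4 without Control+RYGB 1 or either averaged pair. Over all genes, calls ran from 126 to 6703, 1292 to 13343, 0 to 6843, 0 to 15288 and 72 to 6343. Some uncalled members gained a call in the opposite direction, and only these turns are listed. Directions turned with median scaling for DM+RYGB against Control+Sham in Hsph1 (-0.66), Hsf1 (-0.40), Hyou1 (-0.46) and Atf4 (-0.57). They turned for RYGB in diabetic rats in Pdia6 (-0.56) and Herpud1 (-0.57). Hspd1 turned with quantiles (-0.60 and -0.69 for RYGB in diabetic rats and for DM+RYGB against Control+Sham) and with the deposited table (-0.71 and -0.82). Bag3 turned for RYGB in diabetic rats without DM+RYGB 2 (-1.01, against 1.54 without DM+RYGB 1), as did its interaction (-0.91, against 1.64). The cause was not tested. Of the other alternatives of single members, 4446 kept their side of the threshold, 131 lost their call and 184 gained one. Those that kept it include uncalled changes whose sign turned, as for Hspa8 with quantiles and Hsp90ab1 with the median. All members lay well above background. An added alternative, chosen after seeing the data, left DM+RYGB 2 out for 9 further list genes, whose values stand beside them.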
